A study of Mus musculus with 27 samples.

Results

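A stretch of mouse chromosome 15 around Slc4a8 and Sp1 was examined in the retina. It comprised the genes of GRCm38 whose lowest start lay from 99 to 103 Mb and whose mean count was at least 20 over 27 libraries, without Nr4a1 and without genes whose symbols begin with Rpl, Rps, Nduf, Cox, Uqcr or Atp5. Of 214 annotated genes in this stretch, 67 met the rule, out of 55487 genes counted in all. All 67 also passed the filter on low counts used for testing. The stretch was chosen by the log2 fold changes between C3-/- and C3+/+ retinas in these same libraries, in which several of its genes stood out. Levels and differences by C3 genotype are therefore given as a description, and counts of members past a threshold in that comparison restate the choice and support nothing. The Gne genotype, its interaction with C3 and the sequencing run did not enter the choice.

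The libraries came from whole retinas of mice 9 months old, which carried 1 or both functional copies of Gne and either both or no functional copies of C3. The product of Gne catalyses the first steps of sialic acid synthesis, and C3 is the complement protein on which all activation routes converge. The groups were Gne+/- C3-/- (6 mice), Gne+/+ C3-/- (7 mice, called C3-/- where groups are listed), Gne+/- C3+/+ (7 mice, called Gne+/-) and Gne+/+ C3+/+ wildtype (7 mice). In that order, 4, 4, 5 and 5 mice were sequenced in run 1, and 2, 3, 2 and 2 mice in run 2. The study asked whether retinal effects of reduced sialylation depend on complement. C3 itself lies on chromosome 17. The labels give no strain, litter or breeding line, so any other difference between the lines cannot be told apart from the C3 genotype.

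The segment joins genes of unrelated function. Slc4a8 encodes a sodium-driven chloride and bicarbonate exchanger of the plasma membrane, which brings bicarbonate into neurons and so counters acidification during activity. Sp1 encodes a zinc finger transcription factor that binds GC-rich boxes in the promoters of many widely expressed genes. Cers5 encodes a ceramide synthase, which joins a sphingoid base to a fatty acyl chain, mainly palmitoyl. Myg1 encodes an exonuclease that processes RNA in the nucleus and the mitochondria. Nckap5l encodes a microtubule-associated protein of the centrosome. In bulk retina, fewer cells of a type and less RNA per cell cannot be told apart.

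The 250 bases before the start sites of the 4 genes that mark the segment are shown because these genes lie on 1 segment and differed in opposite directions between the C3 genotypes. The sequences are those of RefSeq on GRCm38.p6, read on each gene's own strand, and RefSeq start sites can differ from the gene starts of the files. By the files, the Cers5 window lies wholly inside the Cers5 span, and the Sp1 window lies inside the Sp1 span from position 102406143 on. The Myg1 window lies wholly inside the span of another member, Pfdn5 (chr15:102326116-102331873, plus strand). The windows are chr15:100761497-100761746 on the plus strand for Slc4a8, chr15:102406066-102406315 on the plus strand for Sp1, chr15:99772516-99772765 on the minus strand for Cers5 and chr15:102331459-102331708 on the plus strand for Myg1. Capitals mark GC boxes, searched as GGGCGG on both strands.
Slc4a8: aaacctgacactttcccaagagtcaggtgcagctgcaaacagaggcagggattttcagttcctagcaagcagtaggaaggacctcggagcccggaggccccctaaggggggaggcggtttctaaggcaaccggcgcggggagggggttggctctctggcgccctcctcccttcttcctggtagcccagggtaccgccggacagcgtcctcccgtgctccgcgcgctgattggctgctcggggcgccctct
Sp1: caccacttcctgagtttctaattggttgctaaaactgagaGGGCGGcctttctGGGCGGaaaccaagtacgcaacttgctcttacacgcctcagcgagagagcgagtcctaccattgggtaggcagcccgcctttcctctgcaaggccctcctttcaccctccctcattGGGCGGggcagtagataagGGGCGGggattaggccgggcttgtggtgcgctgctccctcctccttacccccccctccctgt
Cers5: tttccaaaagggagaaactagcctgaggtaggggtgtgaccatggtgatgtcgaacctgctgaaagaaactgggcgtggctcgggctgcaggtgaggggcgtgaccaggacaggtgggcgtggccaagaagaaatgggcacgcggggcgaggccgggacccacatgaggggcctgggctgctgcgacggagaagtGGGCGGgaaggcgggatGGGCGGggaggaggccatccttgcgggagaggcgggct
Myg1: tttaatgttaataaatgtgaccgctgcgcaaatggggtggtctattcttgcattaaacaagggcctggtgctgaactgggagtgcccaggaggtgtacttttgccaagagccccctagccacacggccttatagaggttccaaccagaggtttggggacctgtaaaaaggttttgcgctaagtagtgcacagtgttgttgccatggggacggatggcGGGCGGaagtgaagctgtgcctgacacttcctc

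The Sp1 window held 4 GC boxes, that of Cers5 held 2, that of Myg1 held 1 and that of Slc4a8 held 0. CCAAT boxes, searched as CCAAT on both strands, numbered 3 in the Sp1 window and 1 in that of Slc4a8, with 0 in those of Cers5 and Myg1. TATA boxes, searched as TATAAA on both strands, were found in 0 of these windows. Windows of the same length were listed for 53 of the 67 members, 62 windows in all. A GC box occurred in 59.7% of these 62 windows and in 32.7% of 32851 windows of all listed genes. The shares for the CCAAT box were 32.3% and 33.8%, and those for the TATA box 4.84% and 12.4%. The members were kept by a minimum count in retina, and the listed genes were not. The part of this in the shares was not tested, so they are not read as a trait of the segment. In the Sp1 window 1 of the CCAAT boxes, read on the other strand, shares bases with a GC box. The counts describe letters in these windows and say nothing of binding.

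The libraries held 13.5 to 34.2 M counts and 16459 to 22938 detected genes, with 3.23% to 5.27% of counts in mitochondrial genes. Errors of log2 fold changes cover the spread between mice, and the counted reads, made by PCR and lacking molecular identifiers, may include copies of 1 molecule. C3 measured 0 to 3.6 CPM (counts per 1000000 counts of the scaled library) in C3-/- libraries and at least 53.9 CPM in C3+/+ libraries, and within each run every Gne+/- library lay below every Gne+/+ library in Gne. Summed rod marker levels were 26565 CPM or more in every library, with 8 of 9 rod markers above 0 and Rcvrn at 0. On the first principal axis of run 1, 5 libraries had scores over 0.3 in size and are called those that stood apart. Wildtype mouse 2 and Gne+/- mice 1 and 2 had -0.382, -0.309 and -0.325, and wildtype mouse 6 and Gne+/- mouse 5 had 0.454 and 0.344. All of them are C3+/+, but the cut falls at no gap, with Gne+/- C3-/- mouse 6 at 0.298. Summed levels of 17 lens genes reached 171 CPM in C3-/- and 1789 CPM in C3+/+ libraries of run 1, with Cryba1 at 0 throughout. The mean of 4 genes of the Y chromosome (Ddx3y, Eif2s3y, Kdm5d and Uty) exceeded 10 CPM, in run 1, for 6 of 8 C3-/- and 2 of 10 C3+/+ libraries. In run 2 it did so for 2 of 5 C3-/- and 4 of 4 C3+/+ libraries. Among Gne+/+ mice of run 1 it did so for every C3-/- and no wildtype mouse. Among those of run 2 it did so for every wildtype and no C3-/- mouse. Within either run, C3-/- against wildtype therefore cannot be told apart from a difference in Y-linked expression. The cut on the first axis was not applied in run 2. There wildtype mouse 7 had a score of 0.906 and the fewest detected genes of all libraries, 16459. The part of these features in the differences between C3 genotypes was not tested beyond leaving out libraries and adding a term for Y-linked expression. Their part in the change of C3 differences between runs was not tested. Fits without the 5 libraries, without wildtype mouse 7 and with the Y-linked term are given beside the results over both Gne genotypes.

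Between C3-/- and C3+/+ libraries over both Gne genotypes, 6 of the 67 members passed the edgeR threshold, an adjusted p under 0.05 over 17409 genes with the sequencing run in the model. Slc4a8 and Sp1 were lower in C3-/- retinas, while Cers5, Myg1, Nckap5l and Gm9918, a gene with a provisional symbol that was named after its values were seen, were higher. Over all tested genes 0.569% passed, 0.287% higher and 0.281% lower. The members were picked with this contrast known, so nothing is read from the difference between these shares. Without the 5 libraries that stood apart, 5 of the 6 still passed, all but Nckap5l, and with the term for Y-linked expression all 6 passed. Without wildtype mouse 7 of run 2, 5 of the 6 passed, all but Nckap5l, and Fignl2 was added. At an unadjusted p under 0.05, 16 members passed, against 7.67% of all tested genes. Of the 67 members, 38 had a log2 fold change above 0. The median over the members was 0.05, with values from -1.33 to 1.15, and the median over all tested genes was 0.00.

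Slc4a8 (ENSMUSG00000023032, chr15:100761747-100823968, plus strand) was the member whose libraries separated in both runs. In run 1 it measured 20.2, 41.9, 45.0 and 42.6 CPM in Gne+/- C3-/- mice 3 to 6 and 31.3, 44.6, 32.4 and 44.8 CPM in C3-/- mice 1, 2, 5 and 6. The same run gave 75.3, 67.3, 65.9, 79.0 and 126 CPM in Gne+/- mice 1 to 5 and 96.0, 71.3, 90.6, 98.3 and 118 CPM in wildtype mice 1, 2, 4, 5 and 6. In every C3-/- library of run 1 the level lay below every C3+/+ library.

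In run 2 Slc4a8 measured 34.4 and 34.8 CPM in Gne+/- C3-/- mice 7 and 8, 38.5, 36.8 and 35.7 CPM in C3-/- mice 7, 8 and 9, 71.0 and 71.3 CPM in Gne+/- mice 7 and 8, and 62.2 and 90.4 CPM in wildtype mice 7 and 8. The groups again did not overlap, and the highest C3-/- library of either run lay below the lowest C3+/+ library of either run. The log2 fold change over both Gne genotypes was -1.16 (SE 0.121, 95% interval -1.40 to -0.93), or 44.6% of the C3+/+ level. It was -1.11 (SE 0.175) for Gne+/- C3-/- against Gne+/- and -1.22 (SE 0.168) for C3-/- against wildtype, and -1.24 (SE 0.166) in run 1 and -1.04 (SE 0.147) in run 2 alone. Without the 5 libraries that stood apart it was -1.10 and with the Y-linked term -1.14.

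Libraries that did not overlap in both runs with the same direction were found for 1 of the 67 members, Slc4a8, and for 0.109% of all tested genes. In run 1 alone the C3 genotypes did not overlap for 3 members, Cers5, Slc4a8 and Sp1, against 0.287% of all tested genes. In run 2 alone, with 5 and 4 libraries, they did not overlap for 6 members, Mettl7a1, Letmd1, Pou6f1, Slc4a8, Gm9918 and Aaas, against 2.37% of all tested genes. Mettl7a1, Letmd1 and Pou6f1 were named after their values were seen. Letmd1 and Slc4a8 were the lower ones of these 6.

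Sp1 (ENSMUSG00000001280, chr15:102406143-102436404, plus strand) lay about 1644 kb to the right of Slc4a8. In run 1 it measured 14.6, 9.88, 17.2 and 14.7 CPM in Gne+/- C3-/- mice 3 to 6 and 16.7, 8.96, 10.4 and 14.6 CPM in C3-/- mice 1, 2, 5 and 6. It measured 47.4, 21.5, 39.3, 28.8 and 25.2 CPM in Gne+/- mice 1 to 5 and 34.8, 30.8, 27.7, 24.9 and 35.4 CPM in wildtype mice 1, 2, 4, 5 and 6 of that run. The C3 genotypes did not overlap there.

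In run 2 Sp1 measured 74.7 and 74.6 CPM in Gne+/- C3-/- mice 7 and 8, 76.7, 79.8 and 76.4 CPM in C3-/- mice 7, 8 and 9, 104 and 77.7 CPM in Gne+/- mice 7 and 8, and 145 and 100.5 CPM in wildtype mice 7 and 8. Gne+/- mouse 8 lay within the range of the C3-/- libraries, so the genotypes overlapped. The log2 fold change over both runs and Gne genotypes was -0.98 (SE 0.145), or 50.7% of the C3+/+ level. It was -0.47 (SE 0.131) in run 2, where Sp1 did not pass the threshold, and -1.25 (SE 0.192) in run 1. The difference of run 2 minus run 1 was 0.77 (SE 0.274), with an unadjusted p of 0.00822 and an adjusted p of 1.0 in edgeR. Between Gne genotypes the C3 values lay close, at -0.95 (SE 0.207) for Gne+/- C3-/- against Gne+/- and -1.01 (SE 0.199) for C3-/- against wildtype.

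**Figure D1:**
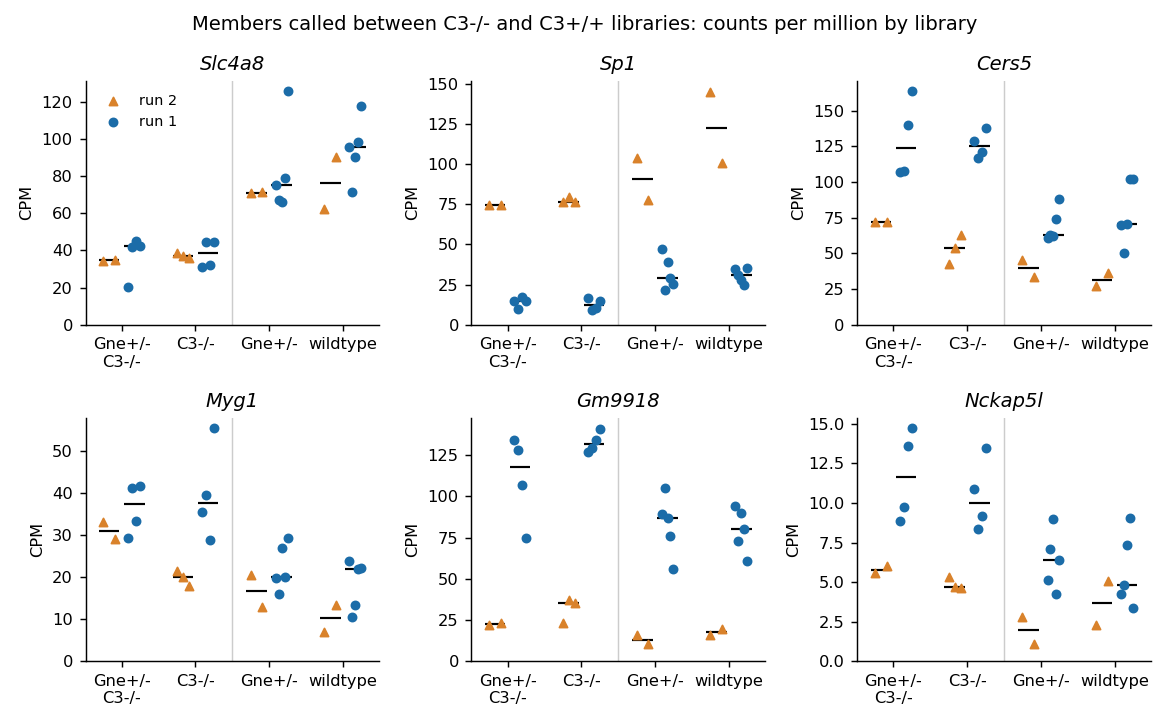
CPM values (linear axes from 0) of the 6 members called between C3 genotypes, by genotype group, with 1 point per library, triangles for run 2, circles for run 1 and bars at the median of each group and run. Slc4a8 is the gene whose C3-/- libraries, left of the grey line, all lie under the C3+/+ libraries in both runs, and Sp1 and Gm9918 show the large offsets between runs.

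Cers5 (ENSMUSG00000023021, chr15:99734881-99772885, minus strand) was higher in C3-/- retinas. In run 1 its 8 C3-/- libraries held 107 to 164 CPM with a median of 125 CPM, and its 10 C3+/+ libraries held 50.3 to 102 CPM with a median of 70.5 CPM. In run 2 the levels were 71.7 and 72.2 CPM in Gne+/- C3-/- mice, 42.3, 54.0 and 62.6 CPM in C3-/- mice, 45.6 and 33.7 CPM in Gne+/- mice, and 26.8 and 36.6 CPM in wildtype mice. The genotypes did not overlap in run 1, and in run 2 C3-/- mouse 7 lay below Gne+/- mouse 7. The log2 fold change was 0.78 (SE 0.112), or 172% of the C3+/+ level, with 0.77 (SE 0.135) in run 1 and 0.81 (SE 0.162) in run 2. Other annotated genes cover 18.1% of the Cers5 span, and reads there were left out of its counts.

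Myg1 (ENSMUSG00000001285, chr15:102331709-102338139, plus strand) held 28.9 to 55.4 CPM with a median of 37.5 CPM in the 8 C3-/- libraries of run 1, against 10.6 to 29.4 CPM with a median of 21.0 CPM in the 10 C3+/+ libraries. The ranges overlapped at their ends, where C3-/- mouse 5 and Gne+/- C3-/- mouse 3 lay just below Gne+/- mouse 5. In run 2 it measured 33.0 and 29.1 CPM in Gne+/- C3-/- mice, 17.8 to 21.4 CPM in the 3 C3-/- mice, 20.5 and 12.9 CPM in Gne+/- mice, and 6.97 and 13.5 CPM in wildtype mice. Gne+/- mouse 7 lay within the C3-/- range there. The log2 fold change was 0.90 (SE 0.154), or 187% of the C3+/+ level, with 0.89 (SE 0.180) in run 1 and 0.93 (SE 0.230) in run 2. Myg1 passed in run 1 alone but not in run 2 alone. By Gne genotype it was 0.78 (SE 0.220) for Gne+/- C3-/- against Gne+/- and 1.02 (SE 0.215) for C3-/- against wildtype.

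Myg1 lies between Pfdn5, a subunit of the prefoldin chaperone, and Aaas, which encodes the nuclear pore protein aladin. The span of Pfdn5 ends at position 102331873, inside that of Myg1. Aaas, on the minus strand, spans 102338252 to 102350771, so its far end lies just past the end of Myg1. The log2 fold changes of these neighbours were 0.28 (SE 0.127) for Pfdn5 and 0.47 (SE 0.155) for Aaas, against 0.90 for Myg1. Neither neighbour passed the threshold. Counting used no strand, and reads in the overlap of Pfdn5 and Myg1 were left out for both.

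Gm9918 (ENSMUSG00000097050, chr15:102270563-102274121, plus strand) is annotated as protein coding and has no role stated here. In run 1 it held 74.6 to 141 CPM with a median of 129 CPM in C3-/- libraries and 56.2 to 105 CPM with a median of 83.6 CPM in C3+/+ libraries. Gne+/- C3-/- mouse 6, at 74.6 CPM, was the lowest C3-/- library and lay within the C3+/+ range. In run 2 it measured 22.3 and 23.5 CPM in Gne+/- C3-/- mice, 23.2, 37.2 and 35.6 CPM in C3-/- mice, 15.8 and 10.3 CPM in Gne+/- mice, and 15.8 and 19.4 CPM in wildtype mice, without overlap. Over both runs the log2 fold change was 0.67 (SE 0.114), or 159% of the C3+/+ level, with 0.57 (SE 0.133) in run 1 and 0.84 (SE 0.211) in run 2. Gm9918 did not pass in either run alone, with an adjusted p of 0.054 in run 1 in edgeR.

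Nckap5l (ENSMUSG00000023009, chr15:99422035-99457748, minus strand) was the weakest of the calls and the lowest in level. It held 8.34 to 14.7 CPM with a median of 10.3 CPM in C3-/- libraries of run 1 and 3.35 to 9.06 CPM with a median of 5.76 CPM in C3+/+ libraries. In run 2 it held 4.66 to 6.01 CPM in C3-/- and 1.12 to 5.09 CPM in C3+/+ libraries, and the genotypes overlapped in both runs. Its log2 fold change was 0.88 (SE 0.217), or 184% of the C3+/+ level. It lost its call in 29 of 39 other settings with its sign kept. Other genes cover 21.3% of its span.

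The 6 genes were spread along the segment. By lowest position relative to that of Slc4a8, Nckap5l lies at -1340 kb, Cers5 at -1027 kb, Gm9918 at 1509 kb, Myg1 at 1570 kb and Sp1 at 1644 kb. Nckap5l and Cers5 are on the minus strand, so their lowest positions are not where their transcription starts. In that order from Nckap5l to Sp1, 8, 18, 16, 3 and 1 other members lie between each gene and the next, with Slc4a8 the third of the 6. The lower genes do not lie together: Cers5 and Gm9918, both higher, are the called genes on either side of Slc4a8, and Aaas is the only member between Myg1 and Sp1. The nearest member to the right of Slc4a8, Scn8a, which encodes a voltage-gated sodium channel of neurons, had a log2 fold change of 0.12 (SE 0.0787), and the nearest to the left, Galnt6, had 0.24 (SE 0.824) at 1.11 CPM.

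**Figure D2:**
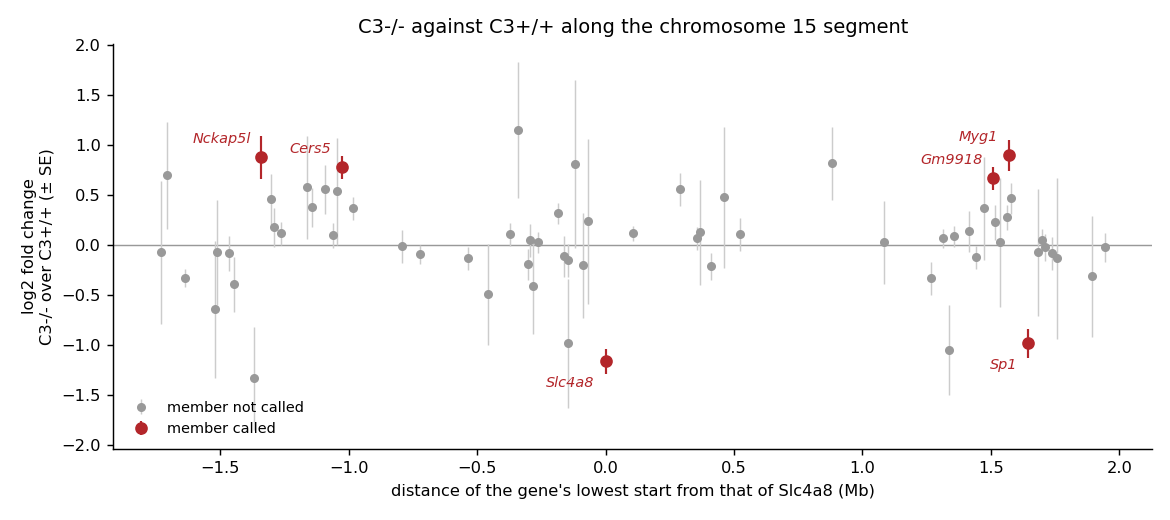
Log2 fold change of C3-/- over C3+/+ libraries (vertical axis, bars show 1 SE) for the 67 members by the distance of their lowest start, whatever the strand, from that of Slc4a8 in Mb (horizontal axis). Red points passed the edgeR threshold. Slc4a8 at -1.16 and Sp1 at -0.98 are the lower ones, and Nckap5l, Cers5, Gm9918 and Myg1 lie from 0.67 to 0.90. Most of the other members lie near 0 or have wide bars.

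Outside the members, 643 genes of chromosome 15 were tested and 1 passed the threshold, Stk3, a kinase of the Hippo pathway, named after its values were seen. The windows next to the segment held 48 tested genes from 95 to 99 Mb and 13 from 103 to 105 Mb, and 0 of either passed. At an unadjusted p under 0.05, 3 and 2 of these passed. Within the segment 83 genes were tested in all, 16 of them under the count minimum or left out by symbol, and 0 of these 16 passed. The median size of the log2 fold change was 0.28 over the 83 genes, 0.18 from 95 to 99 Mb and 0.162 from 103 to 105 Mb, and low counts widen these values.

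Of the 147 annotated genes of the stretch that are not members, 72 were at 0 in all libraries, and 51 of these are covered over 99% of their span by other genes, where the counting leaves reads out. The Hoxc cluster has 8 genes here, with a mean count of 0.778 at most, and 0 are members. Of 25 keratin genes, 2 are members, Krt1 and Krt18. At the edges of the rule, the members just inside were Tuba1c and Prph on the left, at -0.07 (SE 0.716) and 0.70 (SE 0.533), and Gm4544 and Calcoco1 on the right, at -0.31 (SE 0.606) and -0.02 (SE 0.149). Just outside lay Gm49450 and 4930578M01Rik, at 0.36 (SE 0.264) and 0.32 (SE 0.158), and D930007P13Rik and Smug1, at -0.10 (SE 0.545) and -0.65 (SE 0.25). At the count minimum, Galnt6 and Bin2 were inside with mean counts of 20.7 each, and Fam186b and Smagp were outside with 19.5 and 18.4.

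Channels and transporters gave 6 members, of which 0 passed higher and 1, Slc4a8, passed lower, with a median log2 fold change of 0.17. Scn8a was among the 3 members of highest CPM, at 175 to 268 CPM in C3-/- and 151 to 243 CPM in C3+/+ libraries of run 1. These ranges overlapped, with the C3-/- range higher at both ends. Aqp6, an aquaporin of intracellular vesicles, had 0.58 (SE 0.518) at 3.51 CPM, and Asic1, an acid-sensing cation channel, had 0.56 (SE 0.249) at 6.81 CPM. Slc11a2, a transporter of iron and other divalent metals, had 0.11 (SE 0.113).

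Transcription and chromatin factors gave 10 members, with 0 passing higher and 1, Sp1, passing lower, and a median of -0.07. Mcrs1 had -0.64 (SE 0.681), and it was nearly absent in run 1. Atf1, a factor of cAMP responses, had -0.13 (SE 0.114), Tfcp2 had 0.03 (SE 0.103), and Smarcd1, a subunit of SWI/SNF remodelling complexes, had 0.10 (SE 0.129). The 95% intervals of Atf1, Tfcp2 and Smarcd1 lay between -0.35 and 0.35.

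Metabolic genes gave 9 members, with 2 passing higher, Cers5 and Myg1, and 0 lower, and a median of 0.14. Csad, an enzyme of taurine synthesis, had 0.14 (SE 0.203), and Dip2b had -0.09 (SE 0.0966). The cytoskeleton and adhesion group gave 10 members, with 1 passing higher, Nckap5l, and 0 lower, and a median of 0.15. Tns2, which encodes a tensin of focal adhesions, had -1.05 (SE 0.45) at 3.60 CPM.

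RNA-binding and translation factors gave 7 members with 0 passing, a median of -0.02, and values from -0.15 (SE 0.163) for Dazap2 to 0.18 (SE 0.191) for Bcdin3d. Eif4b, a translation initiation factor, had 0.07 (SE 0.0956). Receptors and signalling genes gave 9 members with 0 passing and a median of 0.05. The group of cell division, nuclear pore and folding genes gave 4 members with 0 passing and a median of 0.38, with Fignl2, a relative of microtubule-severing ATPases, at 0.56 (SE 0.161). The remaining 12 members were in no role list, 1 of which passed, Gm9918.

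Tmbim6, which encodes a Bax inhibitor of the endoplasmic reticulum, had the largest fitted log2 fold change below 0 among the members, -1.33 (SE 0.519), and did not pass, but was called with no filter on low counts. In run 1 it measured 205 CPM in wildtype mouse 2, 276 and 247 CPM in Gne+/- mice 1 and 2, and 9.09 to 51.6 CPM in the other 15 libraries. These 3 mice are among the 5 libraries that stood apart. In run 2 it held 151 to 206 CPM in C3-/- and 127 to 190.0 CPM in C3+/+ libraries, and the log2 fold change there was 0.11 (SE 0.110), against -1.99 (SE 0.684) in run 1.

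Lima1, which encodes an actin cross-linking protein and was named after its values were seen, had log2 fold changes of opposite sign in the runs. Over both runs it had 0.37 (SE 0.114) and did not pass, but was called with no filter on low counts and in run 1 alone. It held 158 to 262 CPM with a median of 199 CPM in C3-/- and 109 to 184 CPM with a median of 130 CPM in C3+/+ libraries of run 1, but 182 to 225 CPM in C3-/- and 209 to 234 CPM in C3+/+ libraries of run 2. The log2 fold change was -0.15 (SE 0.102) in run 2 and 0.62 (SE 0.134) in run 1, and the difference of -0.79 (SE 0.203) had an unadjusted p of 0.000492 and an adjusted p of 0.357 in edgeR. The C3 difference changed between runs past the threshold for 0 of the 67 members and for 0.0402% of all tested genes. At an unadjusted p under 0.05, 5 members and 3.86% of all tested genes did.

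Ankrd33, an ankyrin-repeat protein of photoreceptors, and Pfdn5 were the other members of highest CPM. Ankrd33 held 208 to 344 CPM in C3-/- and 161 to 477 CPM in C3+/+ libraries of run 1, with a log2 fold change of 0.07 (SE 0.116). Pfdn5 held 237 to 409 CPM in C3-/- and 157 to 411 CPM in C3+/+ libraries of that run. Both genotypes overlapped for both genes. The summed level of the 67 members was 2852 to 3470 CPM in C3-/- and 2794 to 3521 CPM in C3+/+ libraries of run 1, and 2407 to 2573 CPM in C3-/- and 2311 to 2533 CPM in C3+/+ libraries of run 2. The summed levels overlapped in both runs.

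**Figure D3:**
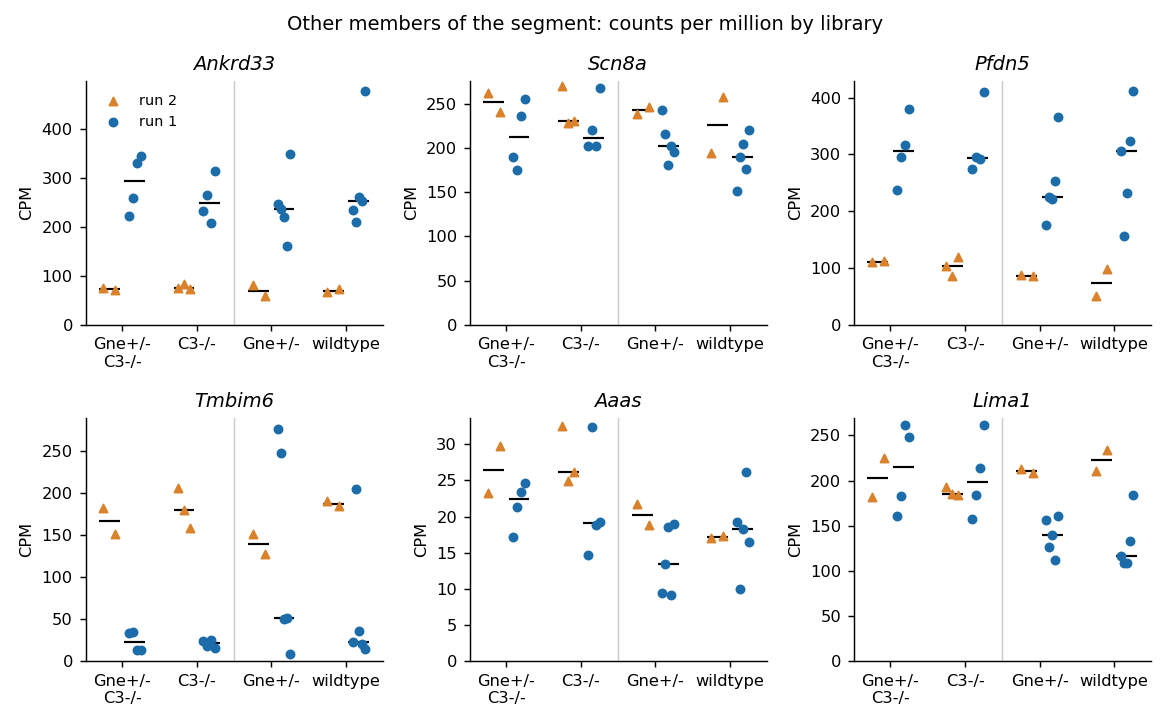
CPM values (linear axes from 0) of 6 other members by genotype group, drawn like the plot of the called members, with triangles for run 2, circles for run 1 and bars at medians. Ankrd33, Scn8a and Pfdn5 have the highest levels and overlap between C3 genotypes, Tmbim6 is high in 3 C3+/+ libraries of run 1 at 205 to 276 CPM, and Lima1 has a higher C3-/- median in run 1 with overlapping libraries in both runs.

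The Gne genotype, which the choice of members did not use, was tested next. For Gne+/- against Gne+/+ over both C3 genotypes, 0 of the 67 members passed in edgeR, 0 had an unadjusted p under 0.05, and DESeq2 and limma-voom also called 0. Of all tested genes 0.00574% passed, a single gene, Gne itself, and 3.3% had an unadjusted p under 0.05. The smallest p-values among the members were those of Gm9918 (-0.22, SE 0.113, unadjusted p = 0.0658), Myg1 (0.29, SE 0.153, unadjusted p = 0.07), Dip2b (-0.17, SE 0.0963) and Mcrs1 (1.17, SE 0.680), each with an adjusted p of 1.0.

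For the genes called by C3 genotype, the Gne difference was -0.12 (95% interval -0.35 to 0.11) for Slc4a8, -0.01 (-0.29 to 0.27) for Sp1, 0.08 (-0.14 to 0.29) for Cers5, 0.29 (-0.01 to 0.59) for Myg1 and 0.02 (-0.41 to 0.45) for Nckap5l. A Gne difference of the size of the C3 difference lay outside each of these intervals. For Gne+/- C3-/- against C3-/-, 0 members passed and 1, Gm9918 at -0.36 (SE 0.164, unadjusted p = 0.0356, adjusted p = 1.0 in edgeR), had an unadjusted p under 0.05. For Gne+/- against wildtype, 0 passed and 2 had an unadjusted p under 0.05, Tns2 at 1.64 (SE 0.610) and Asic1 at -0.84 (SE 0.348), each with an adjusted p of 0.849. In both of these comparisons 0.00574% of all tested genes passed. At an unadjusted p under 0.05, 1.35% of all tested genes passed in the first and 5.76% in the second. DESeq2 and limma-voom called 0 members in either.

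The interaction of the Gne and C3 genotypes asks whether the C3 difference depends on Gne. It passed in edgeR for 0 of the 67 members and for 0 of 17409 genes, which is 0% of them, and for 0 members in DESeq2 and limma-voom. At an unadjusted p under 0.05, 1 member, Tns2, and 3.18% of all tested genes passed. Tns2 had an interaction of -1.97 (SE 0.869, adjusted p = 1.0). It measured 10.4, 12.7 and 5.67 CPM in Gne+/- mice 1, 2 and 4 of run 1 and 0.291 to 3.45 CPM in the other libraries of that run. Gne+/- mice 1 and 2 are among the libraries that stood apart. The interaction was 0.11 (95% interval -0.36 to 0.57) for Slc4a8, 0.07 (-0.48 to 0.62) for Sp1, 0.23 (-0.21 to 0.67) for Cers5 and -0.24 (-0.84 to 0.36) for Myg1.

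Within each Gne genotype, fewer members passed by C3 genotype. They were 3 of 67 for Gne+/- C3-/- against Gne+/-, namely Slc4a8, Cers5 and Sp1, where 0.19% of all tested genes passed. They were 4 of 67 for C3-/- against wildtype, namely Slc4a8, Gm9918, Myg1 and Sp1, where 0.167% passed. C3-/- and wildtype mice also differed in Y-linked expression within each run, in opposite directions between runs. Cers5 had 0.89 (SE 0.161) in the first and 0.66 (SE 0.156) in the second comparison. The calls differ, but the interaction of no member passed, so a difference between Gne genotypes was not shown.

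**Figure D4:**
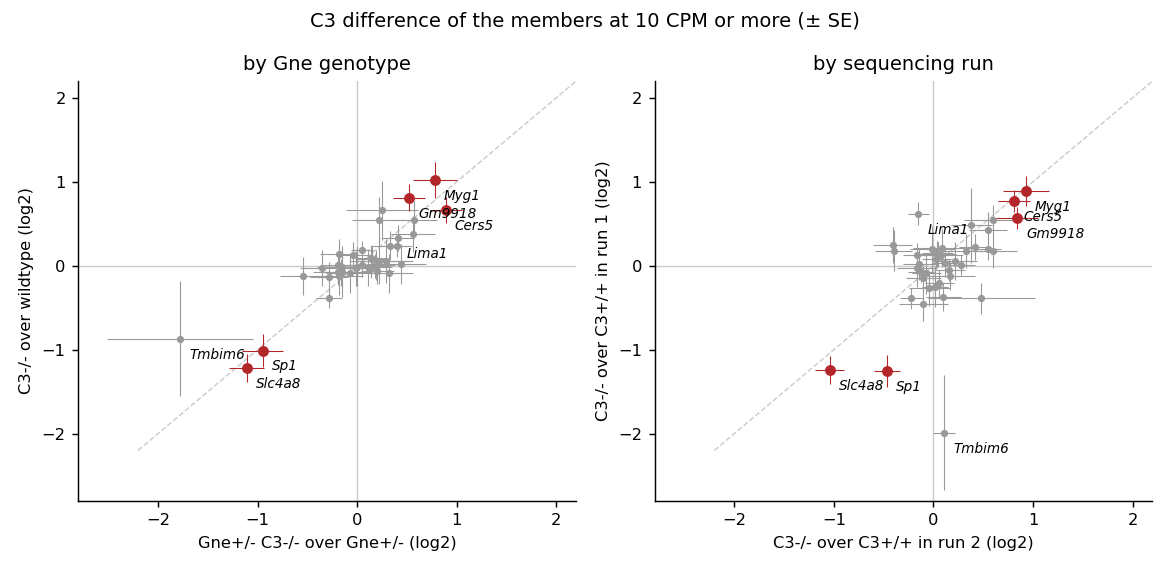
Log2 fold changes by C3 genotype of the 41 members at 10 CPM or more on average, split by Gne genotype (left) and by sequencing run (right), with bars of 1 SE and a dashed line of equality. Red points are members called over all libraries, apart from Nckap5l, which at 6.93 CPM is not drawn. By Gne genotype they lie near the line, with Slc4a8 at -1.11 and -1.22. By run, Sp1 lies at -0.47 in run 2 and -1.25 in run 1, Tmbim6 at 0.11 and -1.99, and Lima1 at -0.15 and 0.62.

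Sequencing run moved many members. Between run 2 and run 1, 44 of 67 passed in edgeR, 18 higher and 26 lower. Of all tested genes 59.5% passed, 30.3% higher and 29.2% lower. Some members met the count minimum mainly through 1 run, so the counts by run are a description. Mcrs1 had means of 15.2 CPM in C3-/- and 12.1 CPM in C3+/+ libraries of run 2. Its means in run 1 were 0.507 and 1.08 CPM. Sp1 was higher in run 2 by 2.16 (SE 0.147) and Gm9918 lower by a log2 fold change of -2.27 (SE 0.135). Ankrd33 had -1.88 (SE 0.135), Pfdn5 had -1.64 (SE 0.146), Cers5 had -1.06 (SE 0.124) and Myg1 had -0.64 (SE 0.167). Slc4a8 had -0.17 (SE 0.128) and did not pass. The adjusted p-values were 1.29e-14 for Sp1 and 4.7e-16 for Gm9918. Each run holds all 4 groups, and the comparisons by genotype carry the run as a term.

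The pathways of the genes that differed were examined through lists that do not depend on chromosome. Of 27 genes of bicarbonate transport and carbonic anhydrases, 24 were tested by C3 genotype, and 0 passed higher and 1, Slc4a8, lower, with a median of 0.00. Slc4a7 and Slc4a10, the sodium-bicarbonate carriers most like Slc4a8, had 0.00 (SE 0.102) at 590 CPM and 0.00 (SE 0.115) at 199 CPM. Slc4a3, an anion exchanger, had 0.20 (SE 0.177). Car2, the main cytosolic carbonic anhydrase, had -1.04 (SE 0.49) and did not pass.

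Of 30 genes of ceramide synthesis and turnover, 28 were tested, and 1 passed higher, Cers5, and 0 lower, with a median of -0.03. The other ceramide synthases did not pass: Cers4 had 0.09 (SE 0.0755) at 268 CPM, Cers6, which makes ceramides of similar chain length, had -0.29 (SE 0.113), and Cers2 had 0.05 (SE 0.467). Of 26 Sp and Klf transcription factors, 20 were tested, and 0 passed higher and 1, Sp1, lower, with a median of -0.05. Sp3, which binds the same boxes as Sp1, had -0.09 (SE 0.0875), and Sp4, a neuronal relative, had -0.25 (SE 0.167). The lists were built around Slc4a8, Cers5 and Sp1, so that each holds a gene past the threshold was fixed by the choice. At an unadjusted p under 0.05 by C3 genotype, 4 of 24 genes of bicarbonate transport, 4 of 28 of ceramide synthesis and 5 of 20 Sp and Klf factors passed, the members included, against 7.67% of all tested genes. After the called genes, the smallest p-values were those of Car8 at -0.24 (SE 0.0992), Kdsr at -0.23 (SE 0.088) and Klf4 at 0.86 (SE 0.326). Sp6 followed Klf4 at -0.51 (SE 0.193). The relatives named above were not picked by p, so they do not stand for their lists. By Gne genotype 0 genes of each list passed, with 0, 1 and 1 at an unadjusted p under 0.05.

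**Figure D5:**
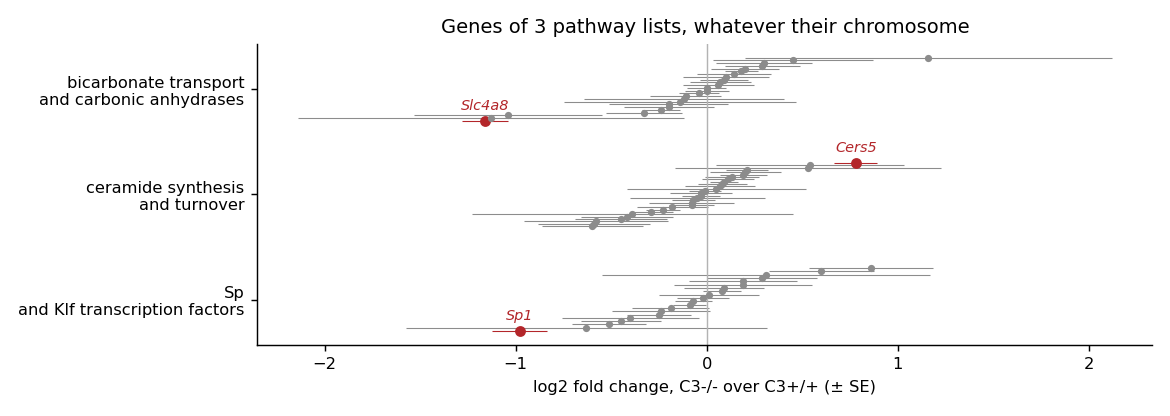
Log2 fold change of C3-/- over C3+/+ libraries (horizontal axis, bars of 1 SE) for the tested genes of 3 pathway lists, each row of points a gene. Slc4a8, Cers5 and Sp1, in red, are the genes past the threshold, and the medians of the lists are 0.00, -0.03 and -0.05.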

How the data were processed

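Libraries were made from 100 ng of retinal RNA with a QuantSeq 3′ kit, per the labels' protocols. The values are raw read counts per gene as the authors deposited them, with no normalization. STAR 2.7.3a and Subread 2.0.0 are named in the submitters' processing notes. Counting was done with featureCounts 2.0.3 on Ensembl 101 and GRCm38, over exon and gene features, without strand and without reads that overlap several genes, per the file headers. The series table and the single-library tables held identical counts.

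From these, genes were filtered with filterByExpr (minimum count 10), scaled with TMM and tested with edgeR 4.0.16 (robust quasi-likelihood, 4 genotype groups plus run, 22 residual degrees of freedom) in R 4.3.3. Adjusted p-values are Benjamini-Hochberg over 17409 genes with a threshold of 0.05, and standard errors come from the F statistic. Intervals are 1.96 standard errors on each side. CPM values use TMM-scaled library sizes. The procedure was tested on simulated data.

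Alternatives were DESeq2 1.42.0, limma-voom (limma 3.58.1), RLE factors, other filters, no robust step, no run term, each run alone, the mouse number in place of the run, and each library left out. After seeing the data, leaving out 5 libraries, a term for Y-linked expression and the test of the C3 difference between runs were added. No 2 libraries looked like duplicates. By their titles, no mouse gave more than 1 library.

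Members, gene lists and tests were chosen with earlier results of these data known. Named genes were the 4 markers, members past the threshold, the 3 of highest level, those of smallest p by Gne genotype and interaction, 2 per role list, the edges of the rule and the pathway genes past the threshold. Genes named after their values were seen are marked where they first appear. Other members given as examples of their role list and other genes of the pathway lists are not marked.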

Additional observations from a re-analysis of the deposited data

Results flagged for a closer look

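Within groups of 4 or 5 libraries of run 1, 80 sets of values of the named members were examined for a library far from the others, and 7 were found. Chance gives about 1 in 20 such sets. Slc4a8 was 126 CPM in Gne+/- mouse 5, against 65.9 to 79.0 CPM in the other Gne+/- libraries, and 20.2 CPM in Gne+/- C3-/- mouse 3, against 41.9 to 45.0 CPM in the other libraries of that group. Both lie on their own genotype's side of the C3 difference.

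Ankrd33 was 477 CPM in wildtype mouse 6, against 209.6 to 261 CPM in the others, and Pfdn5 was 409 CPM in C3-/- mouse 6, against 275 to 296 CPM. Tmbim6 was 205 CPM in wildtype mouse 2, against 14.3 to 36.6 CPM. Grasp was 3.27 CPM in Gne+/- mouse 1, against 0 to 0.512 CPM. Mcrs1 was 0.166 CPM in C3-/- mouse 1, a level of a few counts, with 0 in the others.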

How the results depend on the processing

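Over 39 other settings none of the 6 members called by C3 genotype over both Gne genotypes changed sign. Of all 67 members, 45 kept their sign in run 2 alone, 56 with no run term, 56 with limma-voom and 55 with the replicate block. Lima1 and Tmbim6, at 0.37 and -1.33, had -0.15 and 0.11 in run 2 alone. Of the 6 members called by C3 genotype over both Gne genotypes, 1 was called with no run term, 4 in run 1 alone and 2 in run 2 alone. Of the 4 called for C3-/- against wildtype, 1 was called with no run term, 2 in run 1 alone and 2 in run 2 alone, and of the 3 called for Gne+/- C3-/- against Gne+/-, 1 and 0 were called with no run term and in run 2 alone. A run alone holds fewer libraries, and for the missing run term the cause was not tested. Leaving out 1 library at a time gave 5 to 6, 2 to 5 and 2 to 3 calls in these comparisons, with 2 calls for C3-/- against wildtype when C3-/- mouse 2 was left out. For Gne+/- against wildtype, no filter on low counts gave 1 call in place of 0, and the cause was not tested.

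Limma-voom called 9 members by C3 genotype, adding Spats2 (named after its values were seen), Pou6f1 and Fignl2, and no filter on low counts called 7, adding Tmbim6 and Lima1 and losing Nckap5l. Lima1 was also called in run 1 alone (adjusted p = 0.028 in edgeR). A replicate block, with the mouse number in place of the run, gave 6 calls, 5 of them shared, with Spats2 called and Nckap5l not (adjusted p = 0.199 in edgeR), and 4 and 2 calls within wildtype and Gne+/- backgrounds. Deviations of same-numbered mice correlated at -0.19 to 0.68, with a median of 0.06, and 12 of 31 pairs lay over 0.1. Of 26 libraries, 11 correlated best with their own number, and no chance level was worked out for these figures. The numbers were not taken to pair the mice in the main fit, and whether mice of 1 number share a factor was not tested. Slc4a8 kept its call in all 39 settings, at -1.24 to -1.04. Nckap5l lost it in 29, at 0.75 to 1.01. A minimum mean count of 10 or 50 gave 78 or 55 members. Depth limits the members near the count minimum, with standard errors of 0.824 for Galnt6 and 0.84 for Bin2.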
